A study of Sus scrofa with 2 samples.

Results

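Interstitial fibroblast-like nuclei of pig renal cortex were selected from single-nucleus RNA sequencing data by the transcripts that each nucleus held. A nucleus was a member when it had 500 to 6000 detected genes, at least 1 unique molecular identifier (UMI, a tag that marks 1 RNA molecule) of at least 3 of the 6 genes C7, CYP7B1, SPON1, FBLN5, SVEP1 and ZFPM2, and little RNA of other cells. The limits on that RNA were fewer than 2 UMIs of MYH11, ANO3 and ANO1 together, fewer than 2 UMIs of CD163, MRC1 and CSF1R together, and, per 10000 UMIs of the nucleus, fewer than 15 of FLT1, PTPRB, TEK, EMCN and ADGRL4, fewer than 30 of LRP2 and CUBN, and fewer than 20 of SLC12A1. This left 679 members among 12955 nuclei, 244 of 7035 in the unperfused and 435 of 5920 in the perfused library. The measured values of these genes chose the members, so the levels of these genes in them are given as a description only.

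Interstitial fibroblasts lie between the tubules and the peritubular capillaries of the kidney. They lay down and remodel the interstitial matrix, some of them make erythropoietin when oxygen is short, and after injury part of them take on a contractile state with α-smooth muscle actin and are then called myofibroblasts. Pericytes and the mesangial cells of the glomerulus are related stromal cells, and share many transcripts with fibroblasts.

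The study compared cortex of pig kidneys, obtained from a slaughterhouse, flushed and stored cold, without (unperfused) and with 2 h of perfusion outside the body at body temperature and at a pressure above the physiological range (perfused), to ask whether mechanosensitive transcription changed. Each condition was 1 library of nuclei from frozen tissue, so no difference has a replicate check. The kidney was perfused with a salt solution without albumin or red blood cells. The animals behind the 2 pieces are not given, so that animal, time, temperature, pressure and perfusion solution cannot be told apart. The unperfused library held 34415254 UMIs in 7179 barcodes and the perfused library 35525592 UMIs in 6205 barcodes. Of all barcodes, 14 were found in both libraries, and none of these was a member in both.

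Levels are counts per 1000000 UMIs (CPM) of the summed members of a library, given for the unperfused library first, and differences are log2 ratios of the perfused over the unperfused CPM. The 95% intervals (exact Poisson for a CPM, exact conditional binomial for a ratio, Clopper-Pearson for a share) cover counting error only and hold no spread between animals or preparations. The members held 862484 UMIs in the unperfused and 1337451 UMIs in the perfused library, with medians of 2553.5 and 2125 UMIs and of 1526.5 and 1262 genes per nucleus.

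Members made up 3.47% of the unperfused nuclei (95% interval 3.05% to 3.92%) and 7.35% of the perfused nuclei (6.70% to 8.04%). The share was higher in the perfused library in the 3 lower quartiles of nuclei by UMIs and not in the highest. In the lowest quartile it was 6.03% (4.96% to 7.24%) in the unperfused and 15.9% (14.1% to 17.8%) in the perfused library, and in the highest quartile 2.10% (1.49% to 2.89%) and 2.03% (1.37% to 2.88%). After each nucleus had been thinned to 1000 UMIs, which left out 207 unperfused and 344 perfused nuclei (16 and 60 of them members), the share was 2.89% (2.50% to 3.31%) and 6.17% (5.55% to 6.83%). More members and fewer other nuclei cannot be told apart from these shares.

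**Figure D1:**
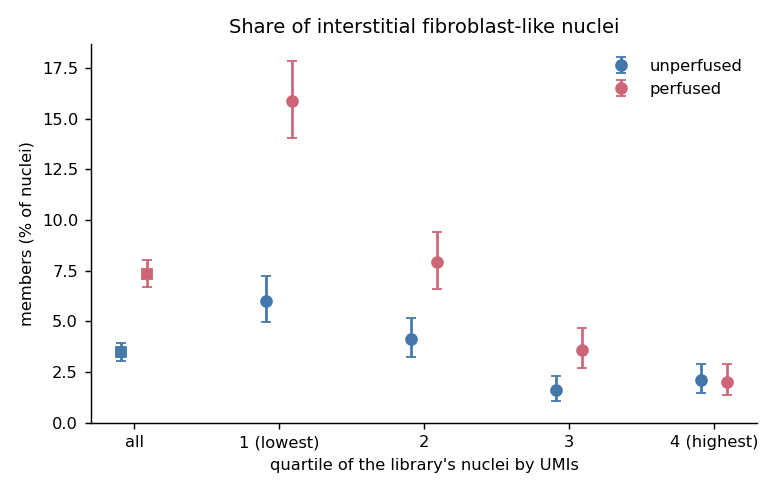
Members as a percentage of all nuclei in each library (squares) and in each quartile of its nuclei ranked by UMIs (circles), with 95% Clopper-Pearson intervals as bars. The perfused share was above the unperfused share in quartiles 1 to 3, and the intervals overlapped in quartile 4 at 2.10% and 2.03%.

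The limits on other RNA removed many nuclei that carried the 6 genes. At least 3 of them had a UMI in 488 unperfused and 1018 perfused nuclei. The endothelial limit alone removed 59 unperfused and 184 perfused nuclei, the macrophage limit alone 28 and 94, the proximal tubule limit alone 53 and 57, the mural limit alone 27 and 53, the thick limb limit alone 23 and 35, and 2 or more limits 54 and 160. Just outside the minimum of 3 genes, 91 unperfused and 128 perfused nuclei within all limits had 2 of them, at a summed level of the 6 genes of 942 and 1495 CPM. Just inside it, 46 and 101 members had 3 of them, at 3667 and 3481 CPM. Members with all 6 stood at 11108 and 11578 CPM. Members with exactly 1 UMI of CD163, MRC1 or CSF1R, the last step inside the macrophage limit, were 7.79% of the unperfused and 23.0% of the perfused members.

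Among the genes that chose the members, C7, a component of the terminal complement complex, stood at 2066 and 1879.7 CPM. CYP7B1, an oxysterol 7α-hydroxylase, stood at 1777 and 1674 CPM, and FBLN5, an organiser of elastic fibres, at 1548 and 1572 CPM. SPON1, a secreted matrix protein, stood at 1406 and 1434 CPM, SVEP1, a large adhesion protein of the matrix, at 663 and 739 CPM, and ZFPM2, a cofactor of GATA transcription factors, at 1155 and 1217 CPM. Their log2 ratios between libraries ran from -0.14 (C7) to 0.16 (SVEP1), and turned to 0.054 for C7 with at least 2 rule genes and to -0.16 for SVEP1 in members without a leukocyte UMI. In proximal tubule nuclei, which should lack them, the 6 genes summed to 139 and 159.6 CPM. In endothelial nuclei they summed to 442 and 1324 CPM and in the nuclei of no class to 208 and 627 CPM, but in thick limb nuclei to 202 and 183 CPM. The part of these levels in the larger share of members was not tested. With all nuclei thinned to 1000 UMIs, C7 had a UMI in 154 of 228 unperfused and 255 of 375 perfused members, and in 41 of 2088 and 41 of 1571 proximal tubule nuclei (1.96% and 2.61%), whose median depths before thinning were 5446 and 6846 UMIs.

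Fibroblast genes outside the rule were also high in the members, although they were measured in the same nuclei and are no independent check of the name. Of 14 further fibroblast markers, 13 are in the files, all 13 had UMIs in the members of both libraries, and their summed level was 3672 and 3316 CPM, against 153 and 169.9 CPM in proximal tubule nuclei. In mural nuclei the same sum was 1848 and 2609.5 CPM and in macrophage nuclei 1857 and 2367 CPM. In endothelial nuclei it was 3199 and 4029.8 CPM, of which MEIS2 alone gave 2972 and 3402 CPM. KCND3 (ENSSSCG00000026680), a voltage-gated potassium channel, stood at 1889.9 and 2159 CPM in the members, against 49.6 and 123.1 CPM in all other nuclei. FHL2 (ENSSSCG00000008147), a LIM-domain cofactor of transcription factors, stood at 1636 and 1719 CPM, against 51.3 and 103.4 CPM, and MEIS1, a homeobox transcription factor, at 791 and 790.3 CPM, against 58.8 and 90.3 CPM. PDGFRA (ENSSSCG00000008841), the platelet-derived growth factor receptor that marks fibroblasts in many organs, stood at 303 and 373 CPM, against 11.3 and 25.6 CPM. These 4 genes were each higher in the members than in every comparison class in both libraries. Thinned to 1000 UMIs, PDGFRA had a UMI in 26.3% and 33.6% of the members and in 0.335% and 0.7002% of proximal tubule nuclei.

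**Figure D2:**
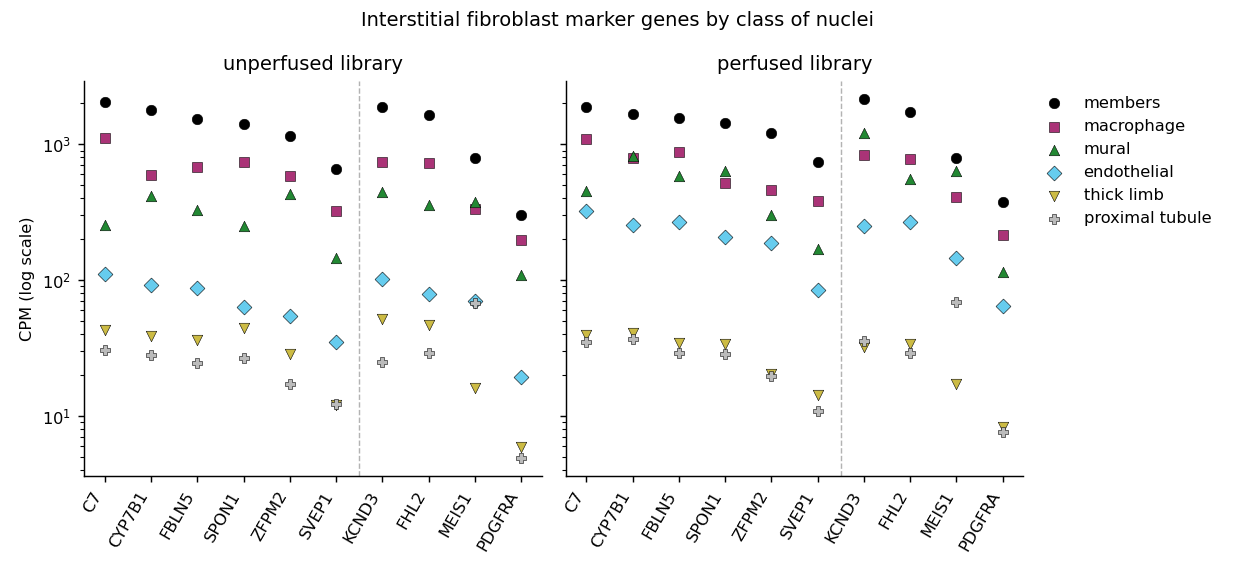
Level in CPM (log axis) of the 6 genes of the selection rule (left of the dashed line) and of KCND3, FHL2, MEIS1 and PDGFRA, in the members and in 5 comparison classes of each library. The members are the highest class for each gene, macrophage and mural nuclei come next, and the 2 tubule classes are lowest.

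Of 4489 genes outside the rule with a UMI in at least 10% of the members of each library, 528 (11.8%) had a log2 fold of at least 1 in the members over all other nuclei in both libraries, and the median of the smaller fold over these 4489 genes was -0.027. As the members were chosen on fibroblast genes, this is a description and not a test. The 15 named genes with the highest smaller fold were KCND3, FHL2, PDGFRA, COL12A1, CDH11, ART4, ADCY5, HPSE2, ABCA6, HGF, COLEC12, IGSF10, CPED1, COL6A5 and GPM6B. Their smaller log2 folds ran from 3.41 (GPM6B) to 4.08 (KCND3). COL12A1, a fibril-associated collagen, stood at 1020.3 and 1053 CPM in the members, and CDH11, the cadherin of mesenchymal cells, at 727 and 754 CPM. HGF, a growth factor that mesenchymal cells release and epithelia receive through MET, stood at 394 and 372 CPM, against 4.16 and 7.80 CPM in proximal tubule nuclei. COL6A5, a collagen VI chain, stood at 129 and 142 CPM, and ABCA6, a lipid transporter, at 844 and 679 CPM. Macrophage nuclei, defined by the macrophage limit alone, held rule genes too, with C7 at 1117 and 1102 CPM, and at least 3 rule genes had a UMI in 28 of 62 unperfused and 94 of 145 perfused nuclei of that class.

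By list, 9 of 13 collagens with enough detection had a log2 fold of at least 1 over all other nuclei, as did 10 of 15 matrix glycoproteins and proteoglycans, 6 of 6 elastic fibre genes, 11 of 19 stromal transcription factors, 11 of 14 contractile genes and 7 of 10 genes of vasoactive signalling. The count was 3 of 13 for growth factor receptors, 2 of 15 for heat shock genes and 0 of 8 for hypoxia targets. It was 8 of 9 for immediate early genes, 5 of 7 for cytokines and chemokines and 4 of 5 for channels. For targets of the cofactor MRTF and its partner SRF it was 16 of 21. It was 22 of 62 for cytosolic ribosomal protein genes and 0 of 9 for mitochondrially encoded genes, against 528 of 4489 for all genes.

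Nuclei over the mural limit alone, 113 unperfused and 150 perfused, were the closest stromal class. Of 5168 genes compared, 93 (1.8%) had a log2 fold of at least 1 in the members over mural nuclei in both libraries, and 201 (3.89%) one of at most -1. VEGFD, a growth factor for lymphatic vessels, stood at 97.4 and 119 CPM in the members against 10.6 and 19.2 CPM in mural nuclei. CCBE1, which takes part in the maturation of that family of growth factors, stood at 1317 and 1494 CPM against 333 and 320.2 CPM. COL6A5, ABCA6, HPSE2, PCSK6, ART4 and PRR16 were the other named genes on this side, with folds nearest to 0 of 1.90 (PRR16) to 2.12 (COL6A5). On the mural side, GJA5, a connexin of arteries, had no UMI in unperfused members and stood at 1.495 CPM in perfused ones, against 87.1 and 117 CPM. RCAN2, an inhibitor of calcineurin, stood at 194 and 179 CPM against 2855 and 3576 CPM. NLGN1, GPC6, CTNNA3, CACNB2, GALNT16 and DGKB were the other named genes lower in the members, with folds nearest to 0 of -4.48 (NLGN1) to -3.81 (DGKB). Of 17 contractile genes, none was higher and 7 were lower in the members by this measure, but both classes were defined by UMIs of MYH11, a contractile gene, so this is conditioned by the rule.

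Among themselves, members were unequal in matrix RNA. COL1A1, COL1A2, COL3A1, DCN and LUM together, genes picked here after their values were seen, gave 1085 UMIs in the unperfused and 1447 UMIs in the perfused members, with a median of 2 UMIs per nucleus in each library. No UMI of any of them was found in 22.1% of the unperfused and 20.5% of the perfused members. A single unperfused nucleus held 361 of the 1085 UMIs, among them 119 of 373 UMIs of DCN, 98 of 276 of COL1A2, 73 of 258 of COL3A1 and 24 of 34 of LUM. It had 9980 UMIs, 3595 genes and all 6 genes of the rule. In the perfused library the richest member held 31 of the 1447 UMIs. The 6 richest unperfused members held at least 50% of these UMIs, and in the perfused library it took 65 members to hold that share.

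Across all genes, members of the perfused and the unperfused library differed in both directions. Of 9141 genes that reached 20 UMIs in at least 1 of the libraries, 4539 (49.7%) had a log2 ratio above 0 and the median was -0.0049. A log2 ratio of at least 1 was found for 759 genes (8.3%) and one of at most -1 for 396 genes (4.33%). Intervals lay wholly above 0 for 1236 genes and wholly below 0 for 1209 genes. The counts of each list below are to be read beside these shares of all genes. The balance of 2-fold differences differed between settings, with 1499 genes higher and 2024 lower at a minimum of 4 UMIs, 363 and 93 at a minimum of 50 UMIs, 416 and 100 after thinning, 939 and 304 with TMM factors, and 140 and 418 in the members with at most 0.5% mitochondrial UMIs.

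Levels of marker genes of other cells, of ribosomal protein genes and of mitochondrially encoded genes were not equal in the members of the 2 libraries. Whether these UMIs came from the members themselves or from other cells was not tested. The 68 cytosolic ribosomal protein genes summed to 7715 and 20025 CPM, and 65 of the 66 with enough UMIs were higher in the perfused members, with a median log2 ratio of 1.41. That median was 0.33 without tubule UMIs and 0.10 without leukocyte UMIs, and turned to -0.11 in members with at most 0.5% mitochondrial UMIs. All 12 mitochondrially encoded genes with enough UMIs were higher, with a median log2 ratio of 2.56 (1.26 without tubule UMIs, 1.48 without leukocyte UMIs and 0.79 in members with at most 0.5% mitochondrial UMIs), and ND6, below that minimum, had 16 and 10 UMIs. All 13 of these genes summed to 1968 and 11293 CPM. Mitochondrial RNA is made outside the nucleus, and ribosomal protein mRNA works in the cytoplasm. Of 7 further macrophage and leukocyte markers, 6 are in the files, LYZ had no UMI, and the 6 summed to 618 and 1827 CPM, most of it from CD74 at 300.3 and 1263 CPM. T lymphocyte markers summed to 254 and 564 CPM with CD3G at 0 in both libraries, and SKAP1 gave 155 and 348 CPM of this. The 9 further endothelial markers summed to 363 and 596 CPM, and PLVAP gave 48.7 and 178 CPM of this. Proximal tubule markers outside the rule summed to 400.0 and 379 CPM, and those of the thick ascending limb to 831 and 976 CPM. Intercalated cell markers were lower, at 584 and 195 CPM. Markers of connecting tubule and principal cells summed to 933 and 1839 CPM, of which SLC8A1 gave 686 and 1614 CPM. A UMI of PTPRC, CD74, TYROBP, LAPTM5, CD53, C1QB or C1QC was found in 65.2% of the unperfused and 83.9% of the perfused members, at median depths of those members of 2717 and 2173 UMIs. More than 0.5% of UMIs were mitochondrial in 15.2% of the unperfused and 64.6% of the perfused members. Members with leukocyte UMIs and members with more than 0.5% mitochondrial UMIs were left out in turn as alternative settings.

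**Figure D3:**
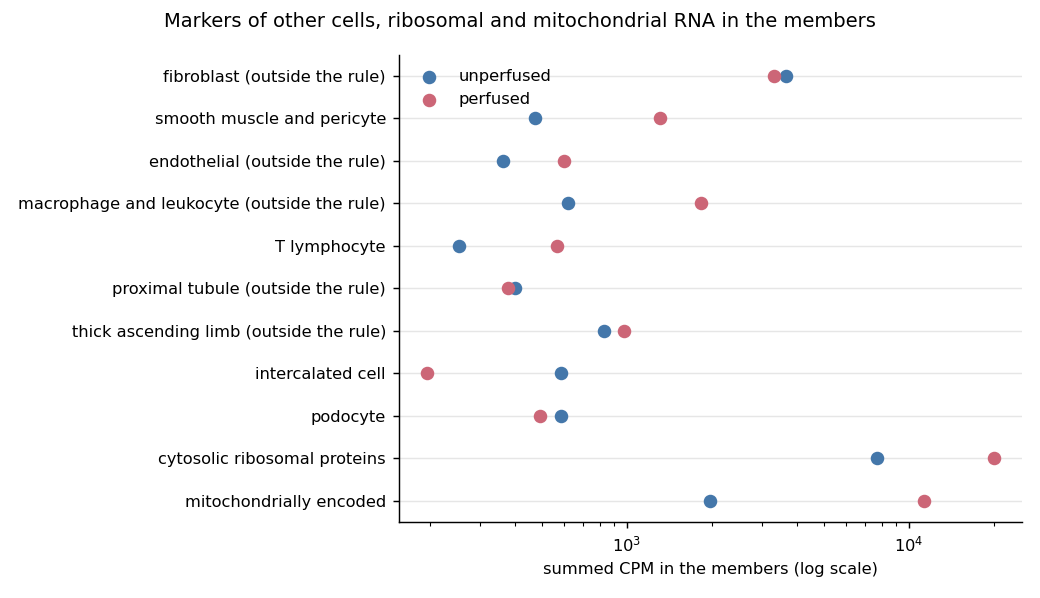
Summed CPM (log axis) of marker lists of other cells, of cytosolic ribosomal protein genes and of mitochondrially encoded genes in the members of the unperfused and the perfused library. The macrophage and T lymphocyte lists, ribosomal and mitochondrial genes are further right in the perfused members, and the fibroblast and proximal tubule lists nearly coincide.

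Of the 10 named genes furthest up among those with at least 50 UMIs in 1 library, 6 are genes of leukocytes and 2 are mitochondrial. CCL5, a chemokine of T cells, stood at 4.64 and 63.6 CPM (log2 ratio 3.78, 2.37 to 5.69), in 4 unperfused and 51 perfused members. CD53 and LAPTM5, membrane proteins of leukocytes, stood at 3.48 and 45.6 CPM (from 3 unperfused UMIs, log2 ratio 3.71, 2.10 to 6.03) and at 9.28 and 64.3 CPM. TYROBP, a signalling adaptor of myeloid cells, stood at 4.64 and 41.9 CPM, and the complement subunits C1QB and C1QC, made by macrophages, at 9.28 and 67.3 CPM and at 4.64 and 41.9 CPM. The mitochondrial genes CYTB and ATP6 stood at 92.8 and 719 CPM and at 182 and 1387 CPM. The remaining 2 were PTGS2, the inducible cyclooxygenase, and TRAPPC5, a subunit of a vesicle tethering complex, at 5.80 and 43.4 CPM and 5.80 and 41.9 CPM. PTGS2 was found in 3 unperfused and 18 perfused members, and 14 of its 58 perfused UMIs were in 1 nucleus.

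The genes furthest down were of several kinds. ITGBL1, an integrin-like secreted protein, had 82 UMIs in the unperfused and 7 UMIs in the perfused members, or 95.1 and 5.23 CPM (log2 ratio -4.18, -5.54 to -3.08), and was in 29 unperfused and 6 perfused members. ADGRD1, an adhesion G protein-coupled receptor, stood at 136 and 10.5 CPM (log2 ratio -3.70, -4.61 to -2.89), in 28 and 13 members. ADGRD1 was lower in mural nuclei too, at 95.1 and 9.59 CPM. GPC6, a heparan sulphate proteoglycan of the cell surface, stood at 86.96 and 20.2 CPM in the members and at 1785 and 1428 CPM in mural nuclei. NFE2L3, SPINK8, PPP1R1C, GHRL and NELL1 had log2 ratios of -2.82, -1.90, -1.86, -1.85 and -1.85, and that of PPP1R1C turned to 0.22 in members without a leukocyte UMI. The same 5 genes were lower in proximal tubule nuclei, with log2 ratios of -1.54, -1.63, -1.48, -1.14 and -1.80, and stood there at 40.3, 42.7, 34.7, 50.2 and 14.6 CPM in the unperfused library. PTPRQ, a receptor phosphatase, stood at 68.4 and 14.95 CPM, with 31 of its 59 unperfused UMIs in 1 nucleus, and LRP1B, an endocytic receptor, at 80.00 and 23.2 CPM.

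Genes of the contractile state were mostly higher in the perfused members. Of 18 contractile and myofibroblast genes with enough UMIs, 16 had a log2 ratio above 0, 7 one of at least 1 and none one of at most -1, and the median was 0.66. Of all 9141 genes, 49.7% had a ratio above 0, 8.3% one of at least 1 and 4.33% one of at most -1. ACTA2 (ENSSSCG00000010447), the α-smooth muscle actin that defines myofibroblasts and is also made by smooth muscle, stood at 288 and 892 CPM (log2 ratio 1.63, 1.43 to 1.84), from 248 UMIs in 82 unperfused and 1193 UMIs in 248 perfused members. Thinned to 1000 UMIs, a UMI of ACTA2 was found in 17.5% of the unperfused (12.8% to 23.1%) and 40.5% of the perfused members (35.5% to 45.7%), and in 0.383% and 1.34% of proximal tubule nuclei. The desmin gene DES stood at 12.8 and 71.03 CPM (log2 ratio 2.48, 1.57 to 3.53) and had the largest ratio of the list. CALD1, caldesmon, stood at 1716 and 2009 CPM (0.23), TPM1, a tropomyosin, at 319 and 473 CPM (0.57), and TAGLN, transgelin, named with MYL9 after their values were seen, at 61.5 and 172 CPM (1.48). SYNPO2, a protein of actin bundles, stood at 479 and 443 CPM (-0.11), and CNN3, a calponin that is not restricted to muscle, at 234 and 203 CPM (-0.21), which was the lowest ratio of the list.

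ACTA2 was higher in perfused nuclei of other classes as well. It stood at 33.6 and 151 CPM in endothelial, 175 and 652 CPM in macrophage, 5.96 and 17.3 CPM in proximal tubule and 13.0 and 20.2 CPM in thick limb nuclei. In mural nuclei it stood at 1165 and 1473 CPM. The 6 rule genes summed to 442 and 1324 CPM in endothelial and to 4038 and 4146 CPM in macrophage nuclei. In proximal tubule nuclei they summed to 139 and 159.6 CPM and in thick limb nuclei to 202 and 183 CPM. At least 3 of them had a UMI in 59 of 1490 unperfused and 184 of 1115 perfused endothelial nuclei. The part of fibroblast RNA in these ACTA2 levels was not tested. The smooth muscle and pericyte list summed to 472 and 1311 CPM in the members, and most of that was ACTA2. MYH11, the smooth muscle myosin, is limited by the rule to 1 UMI per member together with ANO3 and ANO1. It had 7 UMIs in the unperfused and 29 UMIs in the perfused members.

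ACTA2 was higher in the perfused members at both low and high mitochondrial RNA, and for TAGLN and MYL9 this could not be seen. In members with at most 0.5% mitochondrial UMIs, 207 unperfused and 154 perfused, ACTA2 stood at 277 and 833 CPM, TAGLN at 48.2 and 62.6 CPM and MYL9, a myosin light chain, at 3.81 and 8.94 CPM. In the other members, 37 and 281, they stood at 404 and 952 CPM, at 202 and 282 CPM and at 108 and 97.6 CPM. The intervals of the 2 libraries overlapped in both subsets for TAGLN and MYL9 and in neither for ACTA2. Without a leukocyte UMI, in 85 unperfused and 70 perfused members, ACTA2 stood at 322 and 814 CPM and the median log2 ratio of the contractile list was 0.14. In the 57 and 68 members without a UMI of LRP2, CUBN, SLC12A1 or UMOD, the log2 ratio of ACTA2 was 0.55 and the median of the list 0.16.

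**Figure D4:**
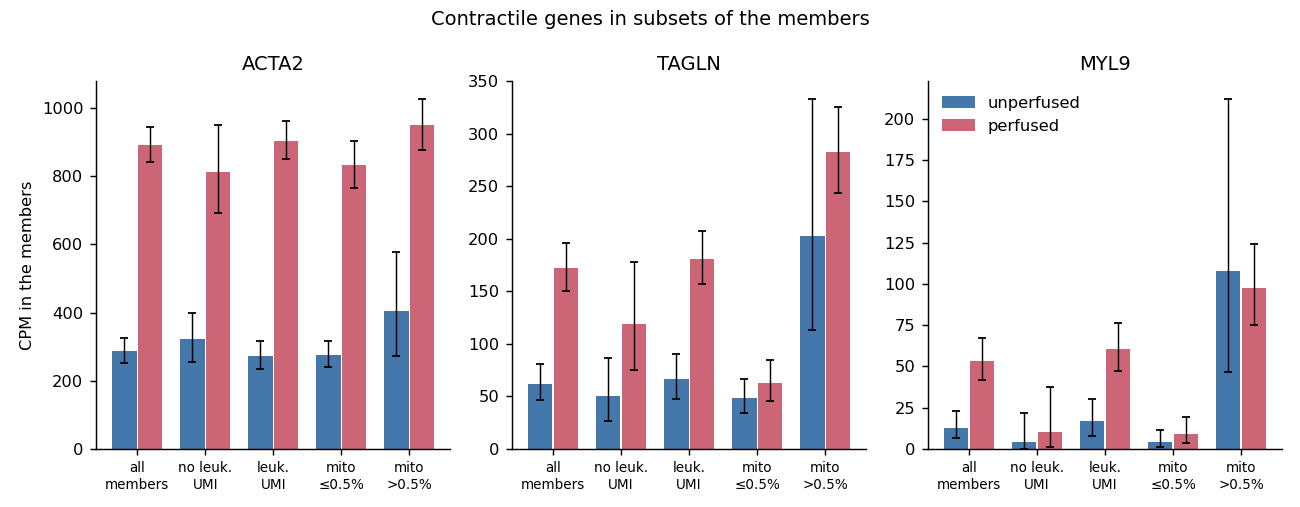
CPM of ACTA2, TAGLN and MYL9 in all members and in members without or with a leukocyte UMI and with at most or more than 0.5% mitochondrial UMIs, for the unperfused and the perfused library, with 95% Poisson intervals as bars. ACTA2 is higher in the perfused members of every subset, while TAGLN and MYL9 have overlapping intervals within both mitochondrial subsets.

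Targets of the cofactor MRTF and its partner SRF, which respond to actin assembly, had the highest median of the lists apart from ribosomal and mitochondrial genes. Of 32 targets with enough UMIs, 30 had a log2 ratio above 0, 13 one of at least 1 and none one of at most -1, with a median of 0.70. The matching shares over all genes were 49.7%, 8.3% and 4.33%. This list shares ACTA2, CALD1, TPM1 and further genes with the contractile list and also holds FHL2, a gene of the label. PFN1, the actin-binding protein profilin, stood at 8.12 and 44.1 CPM (log2 ratio 2.44, 1.31 to 3.82) and had the largest ratio. The cytoplasmic actins ACTB and ACTG1, named here after their values were seen, stood at 137 and 332 CPM and at 144 and 434 CPM. FHL2 had a log2 ratio of 0.071, -0.025 to 0.17, and SRF itself stood at 16.2 and 18.7 CPM. FILIP1L, a regulator of cell migration, stood at 285 and 212 CPM (-0.43, -0.68 to -0.17) and had the lowest ratio, which turned to 0.17 in members without a leukocyte UMI. The median of the list was 0.40 in members with at most 0.5% mitochondrial UMIs and 0.44 in members without a leukocyte UMI. In other classes it was 0.24 in mural, 0.59 in endothelial, 0.69 in macrophage, 0.13 in proximal tubule and -0.0016 in thick limb nuclei.

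Targets of YAP, the other mechanosensitive factor listed, were balanced as a list. Of 17 with enough UMIs, 9 had a log2 ratio above 0, none one of at least 1 and 1 one of at most -1, with a median of 0.0059, which was 0.45 without tubule UMIs.

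**Figure D5:**
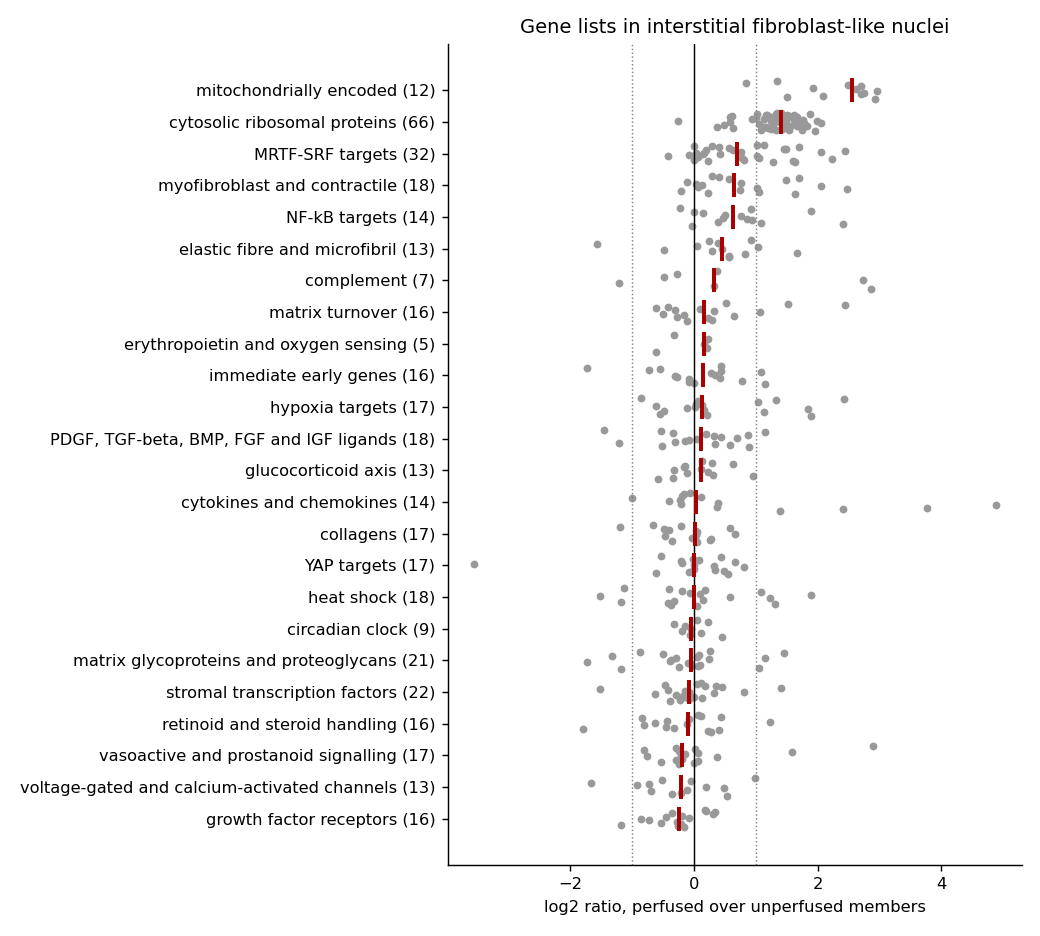
Log2 ratio of perfused over unperfused members for each gene with enough UMIs (grey points) in 24 lists, with the median of each list as a red bar and the number of genes in brackets. Dotted lines mark log2 ratios of -1 and 1 and the solid line 0. Mitochondrial, ribosomal, MRTF-SRF, contractile and NF-kB lists have medians above 0.6, and all other medians lie between -0.24 and 0.45.

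Matrix genes were near balance. Of 17 collagens, 9 had a log2 ratio above 0, none one of at least 1 and 1 one of at most -1, with a median of 0.011. COL12A1 stood at 1020.3 and 1053 CPM (0.045), and the basement membrane chain COL4A2 at 472 and 487 CPM (0.045). COL15A1, a collagen of basement membrane zones, stood at 279 and 336 CPM (0.26), and COL14A1, a fibril-associated collagen, at 359 and 282 CPM (-0.35), with 62 of its 310 unperfused UMIs in 1 nucleus. COL4A1 had the largest ratio, at 137 and 216 CPM (log2 ratio 0.66, 0.35 to 0.98). COL6A2 had the smallest, at 46.4 and 20.2 CPM (log2 ratio -1.20, -1.96 to -0.46).

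Of 21 matrix glycoproteins and proteoglycans, 9 had a log2 ratio above 0, 3 one of at least 1 and 3 one of at most -1, with a median of -0.049. It was 0.12 without the richest nucleus of each gene, 0.22 after thinning, -0.34 without leukocyte UMIs and -0.58 in members with at most 0.5% mitochondrial UMIs. DCN, the collagen-binding proteoglycan decorin, stood at 432 and 364 CPM (log2 ratio -0.25, -0.45 to -0.050), but the ratio turned to 0.27 when the nucleus with the most UMIs of each gene was left out, as 1 unperfused nucleus held 119 of its UMIs. LUM, the related proteoglycan lumican, stood at 39.4 and 11.96 CPM (-1.72) and shares that nucleus. THBS1, thrombospondin, stood at 949.6 and 1009 CPM (0.087), the laminin chain LAMB1 at 655 and 633 CPM (-0.049), and NID1, a basement membrane linker, at 461 and 357 CPM (-0.37). TNC, tenascin, which appears in matrix under repair, stood at 26.7 and 73.3 CPM (log2 ratio 1.46, 0.79 to 2.18) and had the largest ratio, in 5.74% of the unperfused and 9.43% of the perfused members, with 24 of its 98 perfused UMIs in 1 nucleus. In members without a tubule UMI its ratio was -0.059, which came from equal UMI counts in the 2 libraries and gives no direction.

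Elastic fibre genes had a median log2 ratio of 0.45, with 11 of 13 above 0, 2 of at least 1 and 1 of at most -1. Under the minimum of 20 UMIs, ELN, elastin itself, had 17 and 2 UMIs, FBLN2 10 and 4 and MFAP5 12 and 0. LTBP1, which binds latent TGF-β, stood at 688 and 710.3 CPM (0.047), the fibulins FBLN1 and EFEMP1 at 289 and 353 CPM (0.29) and at 167 and 248 CPM (0.57), and FBN1, fibrillin, at 271 and 195 CPM (-0.48). EMILIN2 had the largest ratio, 1.66 from 10 and 49 UMIs, which was -0.18 in members with at most 0.5% mitochondrial UMIs, and LTBP2 the smallest, -1.57 from 21 and 11 UMIs. Enzymes and inhibitors of matrix turnover had a median of 0.16, with 3 of 16 at 1 or more and none at -1 or less.

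Growth factor genes went both ways, and more of their receptors were lower than higher. Of 18 ligands and binding proteins of the PDGF, TGF-β, BMP, FGF and IGF families, 10 had a log2 ratio above 0, 1 one of at least 1 and 2 one of at most -1, with a median of 0.12. IGFBP7, a secreted binding protein, stood at 955 and 1291 CPM (log2 ratio 0.43, 0.31 to 0.56), HGF at 394 and 372 CPM (-0.082) and PDGFD, a ligand of PDGFRB, at 387 and 307 CPM (-0.33, but 0.063 without tubule UMIs). IGFBP5 stood at 162 and 264 CPM (0.70), a ratio that turned to -0.41 without leukocyte UMIs. TGFB1 had the largest ratio at 25.5 and 56.8 CPM (log2 ratio 1.16, 0.46 to 1.91), and TGFB3 the smallest at 26.7 and 9.72 CPM (-1.46), with 13 of its 23 unperfused UMIs in 1 nucleus.

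Of 16 growth factor receptors, 4 had a log2 ratio above 0, none one of at least 1 and 1 one of at most -1. Intervals lay wholly below 0 for 9 of the 16, against 1209 of all 9141 genes. That of PDGFRA lay wholly above 0 (log2 ratio 0.30, 0.083 to 0.52), as did those of 1236 of all genes. The median of the receptors was -0.24, and it was -0.028 without leukocyte UMIs and -0.0092 in members with at most 0.5% mitochondrial UMIs. IGF1R stood at 855 and 807 CPM (-0.083), EGFR at 538 and 445 CPM (-0.27), BMPR2 at 501 and 432 CPM (-0.21) and TGFBR2 at 349 and 399 CPM (0.19). BMPR1B had the smallest ratio, at 161 and 71.03 CPM (log2 ratio -1.18, -1.57 to -0.80), and TGFBR1 the largest, at 46.4 and 59.1 CPM (0.35). The direction turned for EGFR (0.28) and BMPR1B (0.088) without leukocyte UMIs and for BMPR2 (0.092) without tubule UMIs.

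Genes of vasoactive and prostanoid signalling had a median log2 ratio of -0.20, with 7 of 17 above 0, 2 of at least 1 and none of at most -1. The cyclic nucleotide phosphodiesterases PDE3A and PDE1A stood at 1789 and 1611 CPM (-0.15) and at 965 and 834 CPM (-0.21). Both ratios were above 0, at 0.010 and 0.049, in members with at most 0.5% mitochondrial UMIs. EDNRB, an endothelin receptor, stood at 394 and 413 CPM (0.069). Of the receptors of prostaglandin E2, PTGER3 stood at 223 and 189 CPM (-0.23), and PTGER4, the smallest ratio of the list, at 109 and 62.1 CPM (log2 ratio -0.81, -1.26 to -0.37). The largest was that of PTGS2, given above, which makes their precursor.

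Channels included KCND3, which stood at 444 and 1217.5 CPM in mural nuclei, less than 2-fold below the perfused members. Of 13 channels, 4 had a log2 ratio above 0, none one of at least 1 and 1 one of at most -1, with a median of -0.21 that turned to 0.18 without leukocyte UMIs and was -0.48 after thinning, -0.40 with nuclei weighted equally and -0.35 at a minimum of 10 UMIs. KCND3 had a log2 ratio of 0.19, 0.10 to 0.28, which was -0.044 with nuclei weighted equally. CACNA2D1, a calcium channel subunit, stood at 1048 and 903 CPM (-0.21), CACNA1D, its pore-forming partner in some channels, at 276 and 216 CPM (-0.35), a ratio of 0.18 without leukocyte UMIs, and KCND2 at 241 and 338 CPM (0.49), a ratio of -0.18 with nuclei weighted equally. KCNQ5 had the largest ratio at 26.7 and 53.1 CPM (0.99). KCNMA1, the large-conductance calcium-activated potassium channel, had the smallest at 114 and 35.9 CPM (-1.66), but a ratio of 2.90 without leukocyte UMIs, and 22 of its 48 perfused UMIs were in 1 nucleus.

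Stromal transcription factors had a median log2 ratio of -0.081, with 9 of 22 above 0, 1 of at least 1 and 1 of at most -1. The median was 0.16 both with at least 2 rule genes and without tubule UMIs. NFIA stood at 2202 and 1794 CPM (log2 ratio -0.30, -0.38 to -0.21) and EBF1, a factor of adipogenic and stromal progenitors, at 2042 and 1559.7 CPM (-0.39, -0.48 to -0.30). ZEB2, a regulator of mesenchymal state, stood at 810.5 and 877 CPM (0.11). RUNX1, a factor of blood cells that activated fibroblasts also use, had the largest ratio at 144 and 379.8 CPM (log2 ratio 1.40, 1.12 to 1.70), in 20.9% and 30.8% of the members. PRRX1, a mesenchymal homeobox factor, had the smallest at 27.8 and 9.72 CPM (-1.52), from 24 and 13 UMIs.

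Cytokine genes were balanced in number. Of 14, 7 had a log2 ratio above 0, 4 one of at least 1 and 1 one of at most -1, with a median of 0.028, which was -0.74 without leukocyte UMIs. The receptors LIFR, IL6ST, OSMR and IL1R1, which serve cytokines of the interleukin-6 and interleukin-1 families, stood at 698 and 608 CPM (-0.20), at 314 and 339 CPM (0.11), at 136 and 121 CPM (-0.16) and at 144 and 108 CPM (-0.41). LIFR had a ratio of 0.062 without tubule UMIs. CXCL10, a chemokine induced by interferon, had 1 UMI in the unperfused members and 46 UMIs in 26 perfused members (log2 ratio 4.89, 2.34 to 10.22). IL34, a ligand of CSF1R, stood at 92.8 and 46.4 CPM (log2 ratio -1.001, -1.50 to -0.50). Of 7 complement genes, 4 had a ratio above 0, 2 one of at least 1 and 1 one of at most -1, with a median of 0.32. That median was -0.51 over 5 genes in members with at most 0.5% mitochondrial UMIs, -0.47 over 9 with at least 2 rule genes, 1.04 over 4 after thinning and 1.56 over 4 at a minimum of 50 UMIs. The complement inhibitor SERPING1 stood at 97.4 and 126 CPM (0.38), C3 at 38.3 and 47.9 CPM (0.32), CFI at 42.9 and 30.7 CPM (-0.48) and C6, the smallest ratio, at 27.8 and 11.96 CPM (-1.22). C1QB, given above, was the largest.

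Targets of NF-κB had a median log2 ratio of 0.63, with 11 of 14 above 0, 3 of at least 1 and none of at most -1. Over all genes, 49.7% were above 0, 8.3% at 1 or more and 4.33% at -1 or less. BIRC2, an inhibitor of apoptosis, stood at 361 and 353 CPM (-0.031), the subunit gene NFKB1 at 128 and 176 CPM (0.47), its regulator NFKBIZ at 66.1 and 93.5 CPM (0.50) and SOD2, the mitochondrial superoxide dismutase, at 61.5 and 61.3 CPM (-0.0033). CCL2, a chemokine for monocytes, had the largest ratio at 8.12 and 43.4 CPM (log2 ratio 2.42, 1.28 to 3.79), in 2.05% and 6.90% of the members, and VCAM1, an adhesion molecule, the smallest at 31.3 and 26.9 CPM (-0.22). Without tubule UMIs 3 genes of the list were left, their median was -0.72, and NFKBIZ stood at -1.002.

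Genes of the early stress response went both ways. Of 16 immediate early genes, 9 had a log2 ratio above 0, 2 one of at least 1 and 1 one of at most -1, with a median of 0.15. FOS stood at 163 and 155 CPM (-0.079), JUN at 144 and 182 CPM (0.34) and CCN1, a matricellular protein, at 264 and 265 CPM (0.0059). ATF3 had the largest ratio at 42.9 and 94.96 CPM (log2 ratio 1.15, 0.61 to 1.72). It was found in 8.61% of the unperfused and 8.97% of the perfused members, with 21 of its 127 perfused UMIs in 1 nucleus. NR4A3, an orphan nuclear receptor, had the smallest at 288 and 86.7 CPM (log2 ratio -1.73, -2.06 to -1.41), in 15.2% of the unperfused and 14.0% of the perfused members. Of 18 heat shock genes, 9 had a ratio above 0, 4 one of at least 1 and 3 one of at most -1, with a median of -0.0030, which was -1.02 over 6 genes without tubule UMIs and -0.63 over 12 without leukocyte UMIs. HSPA5, a chaperone of the endoplasmic reticulum, was the highest at 27.8 and 104 CPM (log2 ratio 1.90, 1.27 to 2.59). It was found in 6.56% of the unperfused and 13.3% of the perfused members, with 35 of its 139 perfused UMIs in 1 nucleus. Of the cytosolic chaperones, DNAJB1 stood at 432 and 191 CPM (log2 ratio -1.18, -1.41 to -0.94) and HSPA4, with the smallest ratio, at 175 and 61.3 CPM (-1.51, -1.92 to -1.12), of whose 151 unperfused UMIs 42 were in 1 nucleus. HSP90AA1 stood at 417 and 462 CPM (0.15), HSPA8 at 272 and 292 CPM (0.10) and DNAJB4 at 510.2 and 410.5 CPM (-0.31).

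Lists not described above had medians between -0.092 and 0.16. Retinoid and steroid handling had a median log2 ratio of -0.092 over 16 genes, erythropoietin and oxygen sensing 0.16 over 5 (ARNT, EGLN1, EPAS1, HIF1A and HIF3A), hypoxia targets 0.14 over 17, of which 6 were at 1 or more and none at -1 or less, the glucocorticoid axis 0.11 over 13 (-0.11 at a minimum of 50 UMIs) and the circadian clock -0.048 over 9 (0.38 without leukocyte UMIs). EPO itself had no UMI in the members of either library, which does not exclude a low level. The median of its list was -0.035 with at least 2 rule genes, -0.15 without leukocyte UMIs and -0.32 at a minimum of 4 UMIs. Mitochondrial and ribosomal protein genes had medians of 1.61 and 0.75 in mural, 1.34 and 0.63 in endothelial and 0.86 and -0.031 in proximal tubule nuclei. Their medians were 1.14 and 0.71 in macrophage and 0.59 and -0.097 in thick limb nuclei.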

How the data were processed

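Nuclei of frozen cortex had been profiled with 10x Genomics droplets, and the authors deposited 1 matrix of raw UMI counts per library, made with Cell Ranger 5.0.1 with intronic reads counted. The removal of free RNA, the filters and the doublet calls of the study come after these files. Of 31908 genes, 16554 had a deposited symbol and 17376 after filling from a table of gene names. Members and lists were chosen with earlier results of these data known.

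Counts of the members were summed per library. Ratios were computed for genes that reached 20 UMIs in at least 1 library, with a sum of 0 set to 3 counts, and a 2-fold difference (log2 ratio of 1 or -1) was called without a test, as there was 1 library per condition. The median of a list is that of its genes with enough UMIs. Comparison classes are nuclei over exactly 1 of the limits. Folds over other nuclei are log2 of (CPM + 5) over (CPM + 5), in the library where the fold is smaller, or nearest to 0 against mural nuclei.

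Named were the rule genes with FHL2, KCND3 and MEIS1, the 15 genes with the highest smaller fold, the 10 furthest each way between libraries (at least 50 UMIs, 15 nuclei and an interval without 0), the 8 furthest each way from mural nuclei, and in each list the 4 genes with most UMIs and the largest ratio each way. Some genes and marker lists are not reported here.

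Doublets were kept. Scrublet, in scanpy 1.11.5, marked 604 of 7035 unperfused (8.59%) and 486 of 5920 perfused nuclei (8.21%), with 23 and 22 members among them. Free RNA was not measured from empty droplets. The summed level of 9 tubule genes in the members was 34.6% and 34.2% of their level in all barcodes of the library. The members were already limited in LRP2, CUBN and SLC12A1. As an alternative only, these shares were taken as upper guesses of free RNA, and the profile of all barcodes was subtracted in proportion. Analyses used Python 3.11.15, numpy 2.4.6, scipy 1.17.1 and pandas 2.3.3, and alternative scale factors came from edgeR 4.0.16 and DESeq2 1.42.0 in R 4.3.3. The scripts were tested on simulated data.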

Additional observations from a re-analysis of the deposited data

Results flagged for a closer look

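A few genes went one way in the members and the other way in another class of nuclei of the same libraries. None of these differences between classes was tested, as each condition was 1 library. PTPRQ had a log2 ratio of -2.19 in the members, but 6.38 in mural nuclei, from 1 and 115 UMIs, and 1.14 in endothelial nuclei. It was below 0 as in the members in thick limb (-4.67, from 148 and 9 UMIs), macrophage (-1.55) and proximal tubule nuclei (-1.20). LRP1B had a log2 ratio of -1.79 in the members, 0.86 in mural and 0.31 in endothelial nuclei. In macrophage, proximal tubule and thick limb nuclei it was -0.67, -0.25 and -0.24. C7, a gene of the selection rule, had a log2 ratio of -0.14 in the members, 0.83 in mural, 1.54 in endothelial and 0.21 in proximal tubule nuclei. In macrophage and thick limb nuclei it was -0.020 and -0.11. As the members were chosen on C7, its ratio in them is conditioned by the rule, and it was 0.054 with at least 2 rule genes. TRAPPC5 stood at 2.85 in the members and at -0.43 in proximal tubule nuclei. In mural, endothelial, macrophage and thick limb nuclei it stood at 2.29, 0.16, -0.39 and -0.49. PTGS2 stood at 2.90 in the members and at -2.87 in thick limb nuclei, from 33 and 7 UMIs. KCND3 stood at 0.19 in the members and at -0.68 in thick limb nuclei, but with nuclei weighted equally its ratio in the members was -0.044. In mural, endothelial, proximal tubule and macrophage nuclei it stood at 1.46, 1.30, 0.51 and 0.19.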

How the results depend on the processing

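Gene counts, list medians and named ratios were recomputed under 17 other settings. Of these, those leaving out members with a leukocyte UMI or over 0.5% mitochondrial UMIs were chosen after seeing the data. Shares were recomputed only with mitochondrial UMIs of at most 7%, without Scrublet doublets, with at least 2 or at least 4 rule genes, and with nuclei thinned. The share of members was 4.76% unperfused and 9.51% perfused with at least 2 rule genes, 2.81% and 5.64% with at least 4, and 2.89% and 6.17% with nuclei thinned, and was higher in the perfused library in each. Genes at least 2-fold higher and lower numbered 166 and 129 of 2202 without tubule UMIs, 146 and 185 of 3157 without leukocyte UMIs, 140 and 418 of 7072 at low mitochondrial RNA, 416 and 100 of 4222 after thinning, 1285 and 894 with free RNA subtracted, and 1499 and 2024, 1143 and 881, and 363 and 93 at minimums of 4, 10 and 50 UMIs. TMM and DESeq2 factors shifted the median of all genes to 0.11 and 0.10, with 939 higher and 304 lower and 901 and 312 genes, and moved the medians of matrix glycoproteins, retinoid and steroid handling, stromal transcription factors, heat shock and circadian clock from just below to just above 0. 

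In the 57 unperfused and 68 perfused members without a tubule UMI, the median log2 ratio was 0.16 for stromal transcription factors, 0.16 for myofibroblast and contractile, 0.45 for YAP targets, -1.02 for heat shock, -0.72 for NF-kB targets, 0.33 for cytosolic ribosomal proteins and 1.26 for mitochondrially encoded, and single ratios turned to -0.059 (TNC), -0.059 (IGFBP5), 0.063 (PDGFD), 0.092 (BMPR2), 0.062 (LIFR), 0.089 (PDE3A), -1.002 (NFKBIZ), -0.039 (KCND2) and 2.40 (KCNMA1). In the 85 and 70 members without a leukocyte UMI, the median log2 ratio was -0.34 for matrix glycoproteins and proteoglycans, -0.028 for growth factor receptors, -0.74 for cytokines and chemokines, -0.15 for erythropoietin and oxygen sensing, 0.14 for myofibroblast and contractile, -0.63 for heat shock, 0.18 for voltage-gated and calcium-activated channels, 0.38 for circadian clock, 0.10 for cytosolic ribosomal proteins and 1.48 for mitochondrially encoded, and single ratios turned to 0.22 (PPP1R1C), -0.16 (SVEP1), -0.41 (IGFBP5), 0.28 (EGFR), 0.088 (BMPR1B), 0.11 (PDE1A), 0.17 (FILIP1L), 0.18 (CACNA1D) and 2.90 (KCNMA1). In the 207 and 154 members with at most 0.5% mitochondrial UMIs, the median log2 ratio was -0.58 for matrix glycoproteins and proteoglycans, -0.0092 for growth factor receptors, -0.51 for complement, -0.11 for cytosolic ribosomal proteins and 0.79 for mitochondrially encoded, and single ratios turned to -0.18 (EMILIN2), -0.29 (IGFBP5), 0.049 (PDE1A), 0.010 (PDE3A) and 0.036 (CACNA1D). With nuclei thinned to 1000 UMIs, the median log2 ratio was 0.22 for matrix glycoproteins and proteoglycans, 1.04 for complement and -0.48 for voltage-gated and calcium-activated channels, and single ratios turned to 0.22 (DCN) and -0.37 (KCND2). With members of at least 2 rule genes, the median log2 ratio was -0.47 for complement, -0.035 for erythropoietin and oxygen sensing and 0.16 for stromal transcription factors, and single ratios turned to 0.054 (C7) and 0.024 (PDE3A). With nuclei weighted equally, the median log2 ratio was -0.40 for voltage-gated and calcium-activated channels, and single ratios turned to -0.044 (KCND3), 0.24 (DCN) and -0.18 (KCND2). With the richest nucleus of each gene left out, the median log2 ratio was 0.12 for matrix glycoproteins and proteoglycans, and single ratios turned to 0.27 (DCN). With genes of at least 10 UMIs, the median log2 ratio was -0.35 for voltage-gated and calcium-activated channels. With genes of at least 50 UMIs, the median log2 ratio was 1.56 for complement and -0.11 for glucocorticoid axis. With genes of at least 4 UMIs, the median log2 ratio was -0.32 for erythropoietin and oxygen sensing. The values of -0.059 for TNC and IGFBP5 came from equal UMI counts in the 57 and 68 members, so they give no direction. No minimum of UMIs was set for single ratios in subsets. Subsets and higher minimums hold fewer nuclei or genes, and apart from that the cause was not tested. Of the values of 109 named genes under all settings, 1213 stayed within their counting interval, 262 left it and 31, of ratios whose interval lay off 0, turned, and 152 of all 1506 had another sign than the reported ratio. Of 402 values of list medians under other settings, 73 had another sign than the reported median, 3 of them for lists whose interval lay off 0. No paired analysis was possible because each condition is 1 library, and for the same reason no replicate could be left out.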

Other observations

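Markers of further cell types that the limits did not name were also found in the members. SLC8A1, a sodium-calcium exchanger in the list of connecting tubule and principal cells, gave 686 and 1614 CPM (unperfused and perfused members) of the 933 and 1839 CPM for the whole list. Intercalated cell markers summed to 584 and 195 CPM, and SLC26A7 gave 274 and 98.7 CPM of that. Mesangial markers summed to 2388 and 1922 CPM, of which EBF1 gave 2042 and 1559.7 CPM. Podocyte markers summed to 581 and 490.5 CPM, distal convoluted tubule markers to 195 and 164 CPM, B lymphocyte markers to 73.0 and 78.5 CPM, cycling genes to 91.6 and 70.3 CPM and adipocyte markers to 4.64 and 6.73 CPM.

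The marker list of PI16 fibroblasts, a population found around larger vessels, summed to 170.4 and 92.0 CPM. PI16 itself, picked here after its values were seen, had 41 UMIs in 8 unperfused members and 2 UMIs in 2 perfused members.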
